A study of Mus musculus with 6 samples.

Results

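The Dlk1-Dio3 imprinted miRNA cluster is a run of microRNA (miRNA) hairpins on mouse chromosome 12, and its mature arms were followed here in the pancreas of mice with acute pancreatitis and their controls. Members were chosen by name: every mature mouse miRNA whose number is one of 48 assigned to the domain, with either arm (5p or 3p) of its hairpin. That gave 87 of the 1414 rows of the deposited count table, from 48 hairpins, and all 87 are listed on chromosome 12 there. No member repeated the sequence of another row. The rule uses names only and sets no threshold on a measured value.

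Small RNA was sequenced in 6 libraries from the pancreas of wild-type C57BL/6 mice weighing 22 to 25 g, 3 per group. Mice of the model group (libraries 56, 57 and 59) received 7 intraperitoneal injections of caerulein at 1 h intervals, at a labelled dose of 50 mg/kg, with lipopolysaccharide (LPS), a component of bacterial cell walls, added to the last. Caerulein is an analogue of cholecystokinin that overstimulates the enzyme-secreting acinar cells. Control mice (libraries 43, 44 and 45) received saline in the same way, and tissue was taken 24 h after the start. No group received caerulein or LPS alone, so the agents cannot be told apart. The labels give neither the age of the mice nor the dose of LPS, and they do not say that each library came from a separate mouse. The p-values below are therefore read against the spread among the 6 libraries, some of which may be technical.

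The Dlk1-Dio3 domain is imprinted, which means that its genes are expressed mainly or only from one parental chromosome. The protein-coding genes Dlk1, Rtl1 and Dio3 are expressed mainly from the paternal copy. The noncoding RNAs Meg3, Rian and Mirg are expressed from the maternal copy, all in one direction, and the miRNA hairpins are cut from this long run of noncoding transcription. A hairpin yields a 5p and a 3p arm, of which one is usually kept and loaded into an Argonaute protein, and the seed (bases 2 to 8 from the 5′ end) does most of the pairing with target mRNAs. The miRNAs of the domain are best known from embryo, placenta and brain, and in the pancreas Meg3 and these miRNAs are known from the beta cells of the islets.

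RefSeq placed 46 of the 48 hairpins, all on the plus strand of GRCm38.p6, from base 109563692 to base 109743795, a stretch of 180.1 kb. The other two, miR-544 and miR-666, had no matching entry. In genome order they form 4 stretches, for which the GENCODE M21 annotation of the same assembly was read. The 6 hairpins of the Meg3 side include 1 in an exon of Meg3 (miR-770) and 5 outside annotated genes. A group of 5 hairpins lies opposite an exon of Rtl1, on the other strand, so their mature miRNAs pair perfectly with the Rtl1 transcript. The 2 hairpins of the Rian side lie in introns of Rian. Of the placed hairpins of the Mirg side, 8 lie in exons of Mirg, 4 in its introns and 21 outside annotated genes.

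The mature sequences below are those the results turn on, written 5′ to 3′ as in the deposited table with the seed in capitals. The first 3 are the most abundant members, and the other 7 are the members with an unadjusted p under 0.05 between the groups. RefSeq held a mature entry for 83 of the 87 members, and in all 83 the sequence was that of the deposited table.
miR-127-3p: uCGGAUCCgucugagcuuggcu
miR-411-5p: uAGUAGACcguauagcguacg
miR-379-5p: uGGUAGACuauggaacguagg
miR-134-5p: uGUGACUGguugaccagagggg
miR-329-5p: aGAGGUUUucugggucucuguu
miR-300-3p: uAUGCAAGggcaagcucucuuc
miR-409-3p: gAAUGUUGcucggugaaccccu
miR-541-5p: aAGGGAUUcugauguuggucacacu
miR-493-5p: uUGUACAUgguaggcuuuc
miR-496a-3p: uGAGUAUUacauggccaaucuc
All 10 seeds differ, so these miRNAs do not form a group with shared seed pairing.

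The libraries held 1943693 to 3006220 miRNA counts. Levels are given in CPM, that is, each count divided by its library's total times a factor found by the trimmed mean of M-values (TMM) method, which puts the typical miRNA at the same level in all libraries. A count of 0 in a library allows up to 3 counts, or 0.998 to 1.54 CPM by total counts, and this covers counting error only. Chi-square per degree of freedom over the members ran from 5.36 to 22.0 for the pairs of libraries within a group, so each pair differed by more than sampling noise, which gives about 1. Lists of marker miRNAs for islet, acinar, neural, mesenchymal, leukocyte, erythroid and endothelial cells were all detected, with no marker at 0.

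Levels within the cluster were very uneven. Only 3 members averaged at least 1000 CPM, and together they held 65.0% of all member counts. Another 8 members at 100 to 1000 CPM held 20.5%, 29 members at 10 to 100 CPM held 13.3%, and 47 members under 10 CPM held 1.21%. Among all 1414 rows of the table the 3 leading members ranked 66, 81 and 92.

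miR-127-3p, which lies opposite Rtl1 and directs cleavage of the Rtl1 transcript, was the most abundant member. Its hairpin is at chr12:109592846-109592915. It measured 2285, 2465 and 2794 CPM in control libraries 43, 44 and 45 and 3162, 2977 and 2299 CPM in model libraries 56, 57 and 59. The groups overlapped, since model 59 lay below controls 44 and 45. Model minus control, the difference was 0.16 on the log2 scale (SE 0.20), with an adjusted p of 0.700 in edgeR's test. Scaled by the authors' library totals, which moved most miRNAs up, it was called higher, by 0.957 (SE 0.33, edgeR adjusted p = 0.0389).

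miR-411-5p and miR-379-5p come from the first hairpins of the Mirg side, at chr12:109710175-109710256 and chr12:109709060-109709125, both outside annotated genes. miR-411-5p measured 1462, 1884 and 1009 CPM in control and 1987, 1585 and 1440 CPM in model libraries, which differ by 0.20 on the log2 scale (SE 0.28, adjusted p = 0.740 by edgeR). miR-379-5p measured 1247, 1415 and 942 CPM in control and 1391, 1256 and 940 CPM in model libraries, a difference of -0.0069 on the log2 scale (SE 0.25, adjusted p = 0.991 by edgeR). Both were lowest among the controls in library 45 and lowest among the model libraries in 59. The count ratio of miR-411-5p to miR-379-5p was 1.17, 1.33 and 1.07 in control and 1.43, 1.26 and 1.53 in model libraries. The ratio therefore overlapped between the groups.

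The next 7 members by level gave the same picture. miR-154-5p, from an intron of Mirg, measured 330, 349 and 302 CPM in control and 581, 331 and 401 CPM in model libraries. Its log2 fold change was 0.42 with an SE of 0.27 (edgeR adjusted p = 0.393). The 2 highest values were in model libraries, and model 57 lay between the controls. miR-376a-3p, from a run of closely related hairpins, measured 401, 446 and 332 CPM against 445, 338 and 255 CPM (log2 fold change -0.18). miR-381-3p, of the same stretch, measured 153, 174 and 185 CPM against 203, 137 and 133.9 CPM (-0.11). For miR-329-3p, whose hairpin is activity-induced in neurons along with the rest of the Mirg side, the values were 169, 102 and 252 CPM against 165, 91.4 and 146 CPM (-0.38). Each of these overlapped between the groups, with edgeR adjusted p-values of 0.754 for miR-376a-3p, 0.829 for miR-381-3p and 0.637 for miR-329-3p.

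The other abundant members lie opposite Rtl1. miR-136-5p measured 148.3, 139 and 331 CPM in control and 290, 196 and 193 CPM in model libraries (log2 fold change 0.14, edgeR adjusted p = 0.883). Control 45 was the highest of all 6, and the other two controls were the lowest. miR-434 gave both arms at similar levels. Its 3p arm measured 128.6, 242 and 263 CPM against 201, 132 and 140 CPM (-0.42, edgeR adjusted p = 0.518), and its 5p arm 98.98, 110 and 167 CPM against 180, 117 and 177 CPM (0.34, edgeR adjusted p = 0.569).

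**Figure D1:**
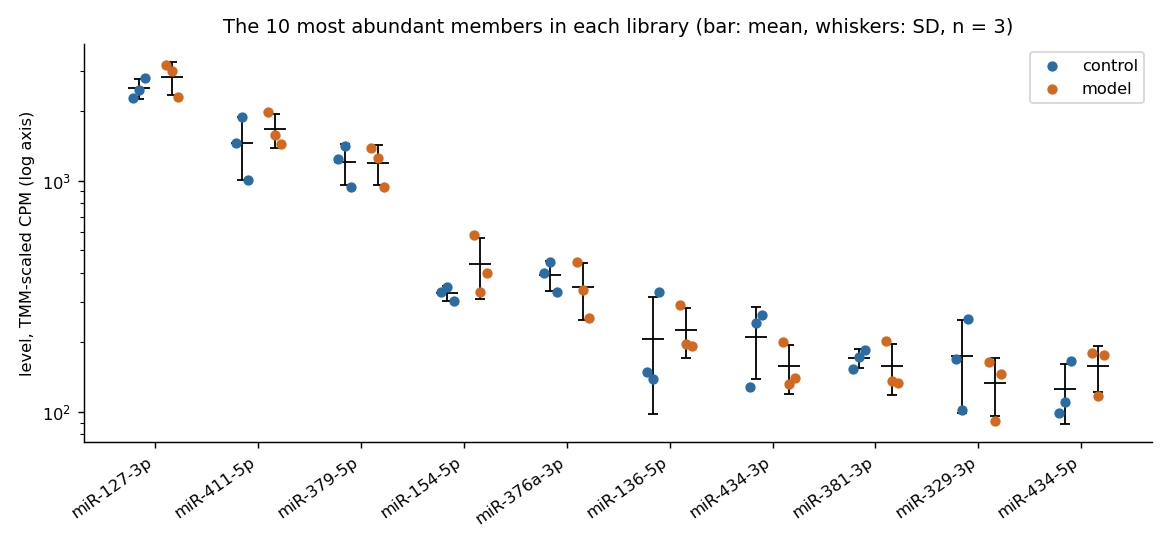
Level of the 10 most abundant members in each library, in TMM-scaled CPM on a log axis; points are libraries, horizontal bars the mean of 3 and whiskers the SD. miR-127-3p, miR-411-5p and miR-379-5p stand above the other 7, and the control and model libraries overlap for each of the 10.

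On the Meg3 side, at the start of the cluster, the most abundant arms both came from miR-337. miR-337-5p measured 60.1, 96.9 and 59.4 CPM in control and 88.9, 88.6 and 65.8 CPM in model libraries (log2 fold change 0.17, edgeR adjusted p = 0.787). miR-337-3p was lower, at 11.6, 11.2 and 20.4 CPM against 18.2, 26.4 and 32.9 CPM (0.85, SE 0.37, edgeR adjusted p = 0.212). Only control 45 kept the groups of the 3p arm from being separate. On the Rian side, miR-341-3p measured 46.6, 66.2 and 30.0 CPM against 120, 66.3 and 40.1 CPM (0.66, edgeR adjusted p = 0.433), and miR-370-3p 10.4, 5.84 and 12.6 CPM against 2.59, 10.1 and 4.19 CPM (-0.75, edgeR adjusted p = 0.488). The values of both Rian-side members overlapped, that of model 56 being the highest for miR-341-3p and the lowest for miR-370-3p. Without model 56 the log2 fold changes were 0.216 and -0.385, and without model 57 that of miR-370-3p was -1.45.

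Summed over its members, the Meg3 side (9 members) reached 118 ± 14.7 CPM in control and 139.8 ± 14.7 CPM in model libraries (SD, n = 3 each). The 10 members opposite Rtl1 reached 3223 ± 457 and 3499 ± 541.4 CPM, the 4 of the Rian side 58.4 ± 14.9 and 82.1 ± 39.99 CPM, and the 64 of the Mirg side 4785 ± 699 and 4890 ± 857 CPM. The groups overlapped in each of the 4 sums. The hairpins opposite Rtl1 held 36.0%, 35.7% and 46.8% of member counts in the controls and 39.8%, 41.7% and 40.6% in the model libraries. Those of the Mirg side held 61.9%, 61.9% and 51.2% against 57.6%, 55.6% and 57.1%. Control 45 stood apart from the other controls in both, and all model libraries lay between control 45 and the others. A further 8 rows of the locus that the name rule does not take summed to 13.9 to 21.4 CPM per library.

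**Figure D2:**
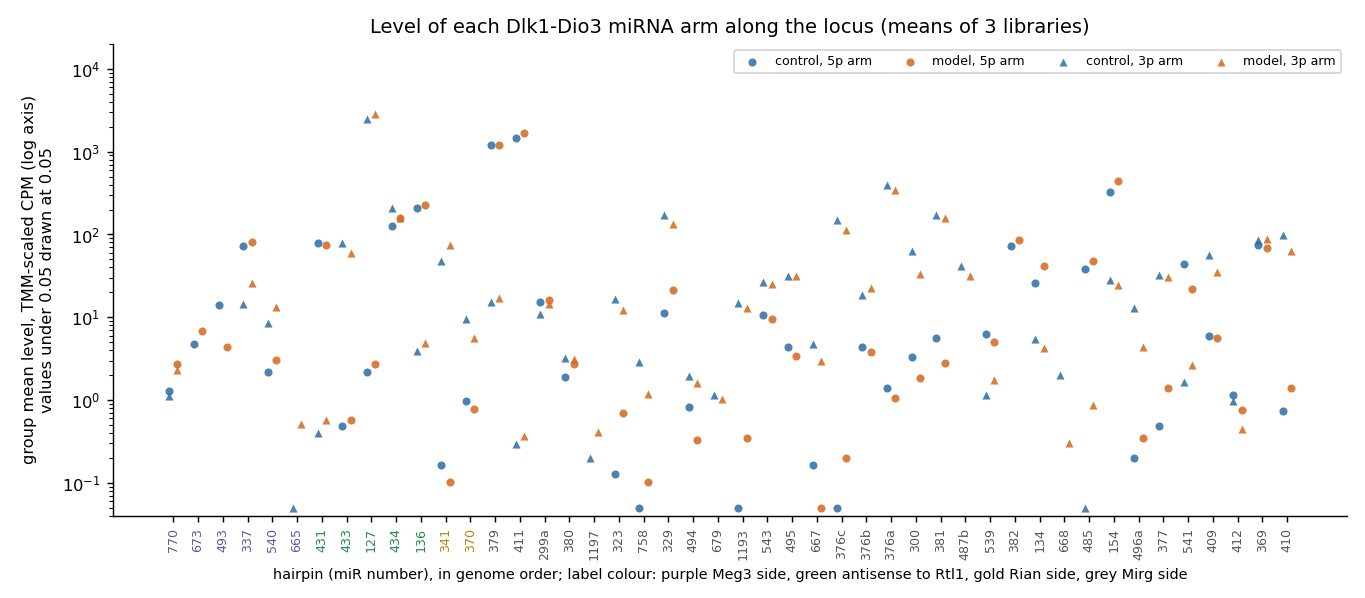
Mean level of every member whose hairpin has a position, in genome order and not to scale, in TMM-scaled CPM on a log axis; circles are 5p arms and triangles 3p arms, blue is control and orange model (n = 3 each), and means under 0.05 CPM are drawn at 0.05. The level differs between neighbouring hairpins far more than between the groups, with miR-127-3p, miR-379-5p and miR-411-5p highest.

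The single comparison of the design asks which miRNAs differ between the pancreas of the model and the control group. It was tested with edgeR over all rows that passed a filter on low counts, 499 of the table. Of the members, 49 passed and 38 did not. None of the 49 passed through the libraries of one group only. The 38 were sparse, with 1 to 62 counts over all 6 libraries, a median of 14.5 and at most 21 in any library, and they held 0.578% of member counts. For 6 of them no control library had a count, and for 1 no model library had.

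No member passed the adjusted threshold of 0.05 in edgeR's test in either direction. Over all tested rows, 1.0% were called higher and 0.2% lower. The lowest edgeR adjusted p of a member was 0.0898, for miR-496a-3p. At an unadjusted p under 0.05 in edgeR, 2 of 49 members (4.08%) were higher, beside 11.4% of all tested rows, and 5 (10.2%) were lower, beside 12.4%. The groups did not overlap, with all model libraries above all controls, for 5 members (10.2%), beside 14.4% of all tested rows. They did not overlap in the other direction for 7 members (14.3%), beside 16.6%. All 4 shares lie below those of all tested rows, and whether they differ from them was not tested.

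On the TMM scale, fold changes of the members lay around zero, 22 positive and 27 negative. Their median was -0.054 on the log2 scale, beside 0.0050 for all tested rows, and they ranged from -1.70 to 0.92. Changes smaller than 0.5 in size were seen for 34 of 49 members (69.4%), beside 61.3% of all tested rows. By stretch, the median log2 fold change was 0.51 for the Meg3 side (4 of 5 tested members positive), 0.14 opposite Rtl1 (4 of 7), -0.044 for the Rian side (1 of 2) and -0.10 for the Mirg side (13 of 35).

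**Figure D3:**
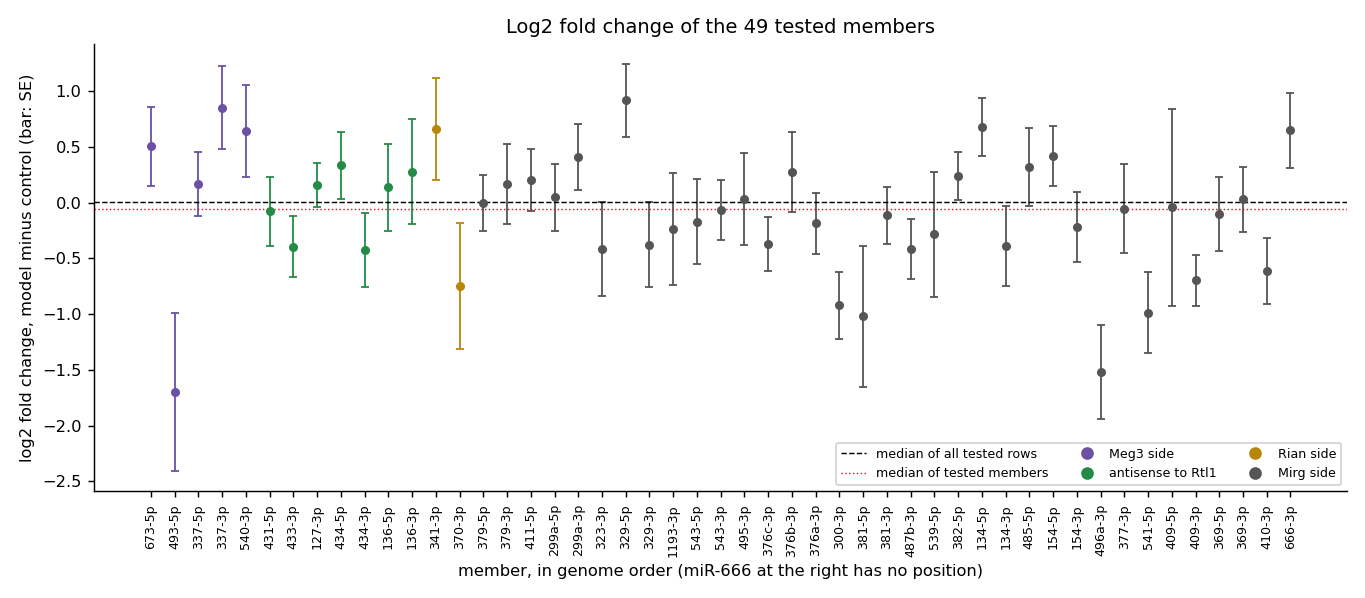
Log2 fold change, model minus control, of the 49 tested members in genome order, with bars of 1 SE and colours for the 4 stretches; dashed and dotted lines are the medians of all tested rows and of the members. Most members lie within 0.5 of zero, and miR-493-5p and miR-496a-3p are the lowest.

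The 5 members that were lower at an unadjusted p under 0.05 all had separate groups, and none passed after adjustment. Of these, 3 come from Mirg introns near the end of the cluster. miR-496a-3p had the lowest p, with 7.70, 12.7 and 18.0 CPM in control and 3.71, 5.22 and 4.19 CPM in model libraries (log2 difference -1.52, SE 0.42, edgeR adjusted p = 0.0898). miR-409-3p was tight within each group, at 57.4, 52.6 and 60.0 CPM against 37.4, 37.1 and 30.2 CPM (-0.70, SE 0.23, edgeR adjusted p = 0.124). miR-541-5p measured 43.9, 34.6 and 53.4 CPM against 20.4, 32.2 and 13.7 CPM (-0.99, SE 0.37, edgeR adjusted p = 0.161). Its lowest control and highest model value are nearly the same. Scaled by the authors' totals, the sign of miR-409-3p turned, to 0.0856 on the log2 scale.

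miR-300-3p, whose hairpin lies at chr12:109724313-109724391 outside annotated genes, measured 75.5, 63.3 and 50.97 CPM in control and 45.2, 27.6 and 27.5 CPM in model libraries (-0.92, SE 0.30, edgeR adjusted p = 0.124). The last, miR-493-5p of the Meg3 side, is at chr12:109580233-109580315 and measured 16.2, 11.7 and 14.4 CPM against 4.08, 8.28 and 0.598 CPM (-1.70, SE 0.71, edgeR adjusted p = 0.201). Its value in model 59 is under the level that a count of 0 allows, so the size of this difference rests on a handful of counts.

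The 2 members that were higher at an unadjusted p under 0.05 were both at low levels. miR-134-5p, from an exon of Mirg at chr12:109734139-109734209 and known for repressing Limk1 in dendritic spines of neurons, measured 28.1, 27.7 and 21.6 CPM in control and 44.8, 33.4 and 46.0 CPM in model libraries (0.68, SE 0.26, edgeR adjusted p = 0.169). miR-329-5p, the less abundant arm of its hairpin at chr12:109713481-109713577, measured 13.5, 12.2 and 8.40 CPM against 24.8, 23.3 and 16.7 CPM (0.92, SE 0.32, edgeR adjusted p = 0.153). For both, the lowest model value was above the highest control value.

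Among the sparse members that were not tested, miR-485-3p had 0 counts in each control and 3, 2 and 3 counts in the model libraries, which is at or under what a count of 0 allows. miR-377-5p had 1, 1 and 1 counts against 4, 5 and 4. They were picked after their values were seen. Over all 87 members, the model libraries were all above the controls for 8 (9.20%, beside 7.50% of all 1414 rows) and all below for 10 (11.5%, beside 7.71%).

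How the summed level of the cluster compared between the groups depended on the scale. Summed over all 87 members, the level was 7794, 8823 and 7938 CPM in control and 10110, 8480 and 7241 CPM in model libraries, or 8185 ± 557 and 8611 ± 1440 CPM (SD, n = 3 each). Model 56 was the highest and model 59 the lowest of all 6, so the groups overlapped. As a share of all miRNA counts, with no further scaling, the cluster took 0.770%, 0.761% and 0.681% in control and 1.10%, 0.920% and 0.840% in model libraries, or 0.737% ± 0.0488 and 0.952% ± 0.131. These groups did not overlap.

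On the authors' own scale, RPM (reads scaled to their library totals), the cluster summed to 725.9, 664.6 and 488.6 RPM in control and 1122, 1253 and 997.6 RPM in model libraries, or 626 ± 123 and 1124 ± 127.9 RPM. These groups did not overlap either. The median log2 fold change of all tested rows was 0.0050 with TMM, 0.29 with total counts alone, 0.79 with the authors' totals and -0.29 with upper quartile factors. That of the members was -0.054, 0.26, 0.73 and -0.33 in the same order, so it stayed near that of the typical miRNA on every scale. With the authors' totals 10 of 51 tested members were called higher and 0 lower, beside 121 and 2 of the 503 rows tested at that setting. The highest log2 fold change among the 10 was 1.71 for miR-337-3p (edgeR adjusted p = 0.0145). With upper quartile factors miR-496a-3p alone of 49 members was called, lower (-1.82, edgeR adjusted p = 0.0376), beside 6 higher and 39 lower among 499 tested rows. In bulk tissue, fewer cells of a type and less RNA per cell cannot be told apart.

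**Figure D4:**
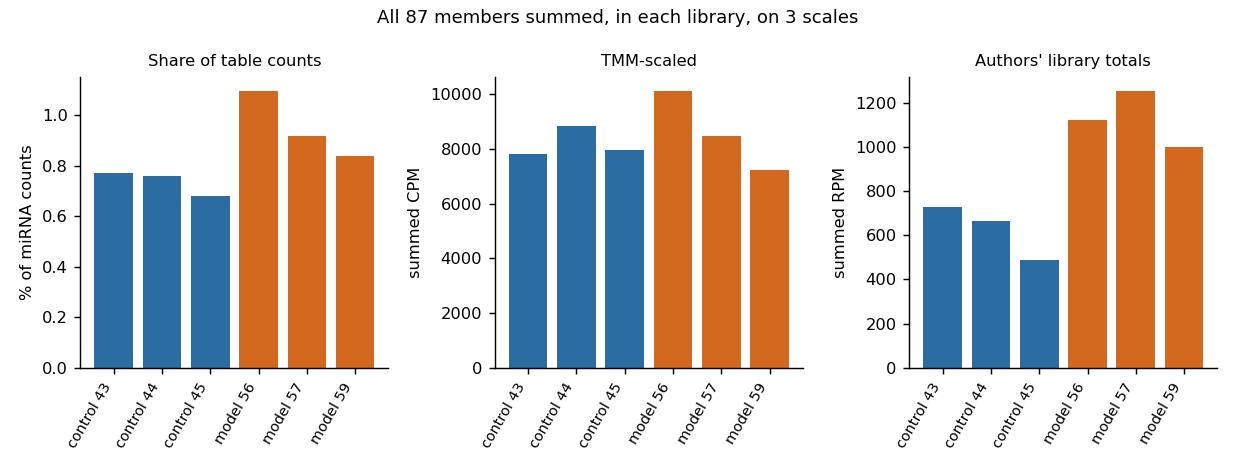
Sum of all 87 members in each library as a percentage of miRNA counts, as TMM-scaled CPM and as the authors' RPM, with bars from 0, blue for control and orange for model. The model libraries lie above the controls on the first and the last scale, while on the TMM scale model 59, at 7241 CPM, is the lowest of the 6.

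The model libraries also differed among themselves across the whole cluster. On the TMM scale model 56 was the highest of its group for 32 of 49 tested members (65.3%, beside 37.7% of all tested rows), and model 59 was the lowest for 27 (55.1%, beside 33.7%). The median difference of a member from the other 2 libraries of its group was 0.31 on the log2 scale in model 56 and -0.30 in model 59, while over all tested rows it was 0.040 and -0.014. Controls showed no such order: control 44, the highest most often, was so for 44.9% of members and 43.3% of all tested rows. Members are cut from shared transcripts, so they are not independent of each other here.

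Summed levels of marker miRNAs, on the TMM scale, were set beside this. The islet list, led by miR-375-3p, ran from 60580 to 83020 CPM in control libraries and was 54180, 49510 and 40550 CPM in model 56, 57 and 59. The acinar list, led by miR-148a-3p, ran from 83420 to 129400 CPM in control and from 67380 to 68740 CPM in model libraries. None of the 5 members of either list was called, and on this scale their groups did not overlap in sum. By the authors' totals the groups overlapped for both lists, with the higher mean in the model group. The islet list then averaged 5411 RPM in control and 6306 RPM in model libraries, and the acinar list 7411 and 9003 RPM. The mesenchymal list was 20910, 20090 and 17320 CPM in model 56, 57 and 59 and 18090 to 27990 CPM in control, the neural list 1603 to 2979 CPM in model and 2103 to 2793 CPM in control libraries, and the leukocyte list 5332 to 11470 CPM in model and 4590 to 6865 CPM in control libraries. One leukocyte marker, the myeloid miR-223-3p, was called higher (log2 fold change 2.75, edgeR adjusted p = 0.0077), and it was the only marker of the 7 lists that was called. The leukocyte list was led by miR-150-5p, which was lower in mean in the model group and not called. It averaged 4404 CPM in control and 3454 CPM in model libraries (log2 fold change -0.35, edgeR adjusted p = 0.735). The log2 fold changes of miR-142a-3p, miR-142a-5p and miR-155-5p were 1.45, 0.99 and 2.91, and none of these was called. The endothelial list was 32210 to 37870 CPM in model and 40570 to 47690 CPM in control libraries, and the erythroid list 7100 to 12080 and 10640 to 13630 CPM. The endothelial groups thus did not overlap either. By the authors' totals the endothelial list was instead higher in all model libraries, at 4192 to 5598 RPM beside 2744 to 3778 RPM in control. In controls 43, 44 and 45 the islet list was 60580, 72750 and 83020 CPM and the mesenchymal list 19670, 27990 and 18090 CPM. On the TMM scale both lists had the order of the cluster's sum in the model group, and neither had it in the control group. No other list had that order in the model group, the neural list being 2625, 1603 and 2979 CPM in model 56, 57 and 59. By the authors' totals the islet list had the cluster's order in both groups. It was 5642, 5480 and 5110 RPM in controls and 6011, 7319 and 5587 RPM in model libraries. By those totals the mesenchymal list had it in neither group. The leukocyte, erythroid and endothelial lists also had the cluster's order in controls by those totals, though not in model libraries. As a share of all miRNA counts, the islet list rose over controls 43, 44 and 45, at 5.98%, 6.28% and 7.12%, while the cluster fell. In model libraries both shares fell from 56 to 57 to 59. The part of cell composition in these values was not tested.

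Ratios between members do not depend on how libraries are scaled. Taken as shares of the summed members, 6 of 49 tested members (12.2%) had all model libraries above all controls, beside 10.8% of all tested rows taken relative to the same sum, and 7 (14.3%) had all below, beside 16.2%. All 7 members named above by their unadjusted p are among these 13. They already had separate groups on the TMM scale in the same libraries, so this is not separate evidence for them. miR-300-3p made up 0.969%, 0.717% and 0.642% of member counts in control and 0.447%, 0.326% and 0.380% in model libraries. miR-409-3p made up 0.736%, 0.596% and 0.756% against 0.370%, 0.438% and 0.417%. miR-134-5p made up 0.361%, 0.315% and 0.272% against 0.444%, 0.394% and 0.636%.

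Ratios of pairs, chosen after the values were seen, show the same differences in counts. miR-409-3p and miR-134-5p both come from hairpins within Mirg. The count ratio of miR-409-3p to miR-134-5p was 2.04, 1.90 and 2.78 in control and 0.835, 1.11 and 0.656 in model libraries. miR-300-3p and miR-381-3p are nearly the same sequence, and the count ratio of miR-300-3p to miR-381-3p was 0.493, 0.364 and 0.275 against 0.223, 0.202 and 0.205. The model libraries lay below all controls in both ratios. For the first this had to be so, since miR-409-3p was lower and miR-134-5p higher in all model libraries than in all controls. The ratio of miR-376c-3p to miR-376a-3p, from the related hairpins beside them, overlapped between the groups at 0.417, 0.345 and 0.366 against 0.224, 0.403 and 0.417. Ratios of miR-376b-3p to miR-376a-3p, miR-411-5p to miR-127-3p and miR-329-5p to miR-329-3p overlapped too.

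Use of the hairpin arms differed widely along the cluster. Both arms were listed for 39 hairpins, and the 3p arm had more counts in 26 of them and the 5p arm in 13. The preference was steepest for miR-411, with 24696 counts on the 5p arm and 5 on the 3p arm over all libraries, and for miR-127, whose 3p arm had 1040 times the counts of its 5p arm. In contrast, the arms of miR-434, miR-299a and miR-369 were nearly balanced, at 1.22, 1.23 and 1.24 to 1. Of the 39 more abundant arms 33 began with A or U, the 5′ bases that Argonaute proteins bind best, and of the 39 less abundant arms 25 did.

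The hairpins of miR-127, miR-411, miR-379 and miR-134 are shown from RefSeq (GRCm38.p6, chromosome 12, plus strand) with both mature arms in capitals, as examples of strong and weaker arm preference.
Mir127: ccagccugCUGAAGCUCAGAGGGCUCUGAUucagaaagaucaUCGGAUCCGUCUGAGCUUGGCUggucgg
Mir411: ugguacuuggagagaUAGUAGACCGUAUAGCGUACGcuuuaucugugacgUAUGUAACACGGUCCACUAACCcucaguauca
Mir379: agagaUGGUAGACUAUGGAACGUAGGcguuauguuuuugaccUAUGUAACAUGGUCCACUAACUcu
Mir134: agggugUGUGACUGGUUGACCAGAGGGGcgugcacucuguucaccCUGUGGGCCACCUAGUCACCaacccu
The 5p arm, first in each, is the abundant one in all but Mir127.

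Arm preference between the groups was tested with limma on log2 (5p counts + 1) minus log2 (3p counts + 1). Of the 125 hairpins whose arms both averaged 10 counts or more, 13 belong to the cluster. No member hairpin was called, beside 0.8% of all those tested, and 1 of 13 (7.69%) had an unadjusted p under 0.05, beside 14.4%. That was miR-134, whose log2 ratio was 2.30, 2.05 and 2.04 in control and 3.23, 2.97 and 3.37 in model libraries. The difference was 1.06 (SE 0.28, limma adjusted p = 0.223). The groups did not overlap for 3 of the 13 (23.1%), beside 20.0% of all hairpins tested. Besides miR-134 these were miR-434, at -0.38, -1.14 and -0.65 in control and -0.15, -0.18 and 0.34 in model libraries, and miR-381, at -4.94, -4.68 and -4.82 against -5.51, -5.10 and -7.23. The values of miR-381 rest on few counts, since its 5p arm had 12, 13 and 10 in control and 11, 12 and 2 in model libraries. The 2 counts of model 59 are under what a count of 0 allows. Beside the values of miR-134-5p above, miR-134-3p averaged 5.51 CPM in control and 4.21 CPM in model libraries (log2 fold change -0.39, edgeR adjusted p = 0.597).

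**Figure D5:**
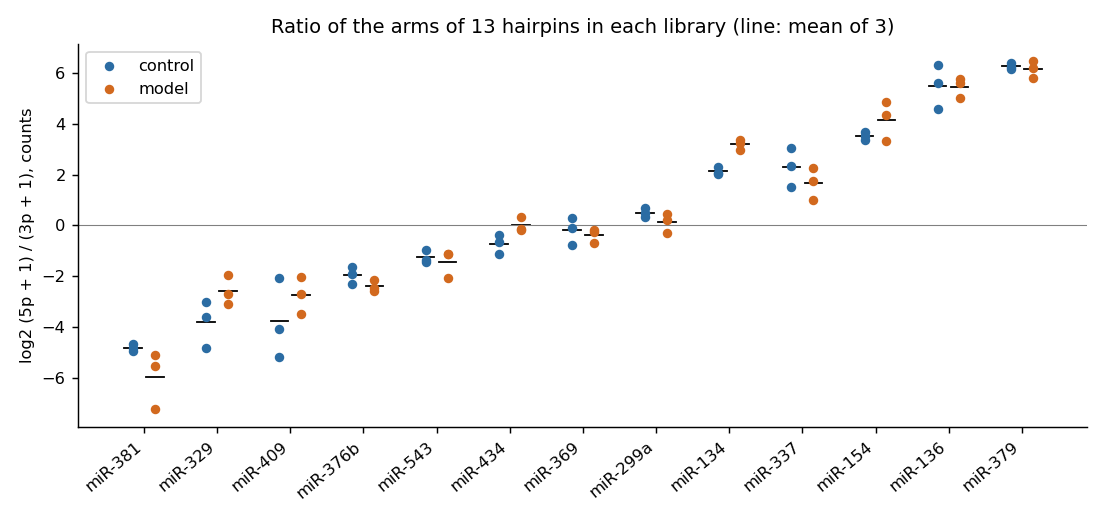
Log2 ratio of 5p to 3p counts, with 1 added to each, in every library for the 13 tested hairpins, ordered by their mean ratio in control libraries. Blue points are control and orange model libraries, and lines mark the mean of 3. The groups are separate for miR-134 (2.04 to 2.30 in control, 2.97 to 3.37 in model), miR-381 and miR-434, and no hairpin of the cluster passed the adjusted threshold.

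Seeds were mostly private to a member. The 87 members carried 81 distinct seeds, and 6 seeds were carried by more than one member, 12 members in all. None of these 6 groups had more than one tested member. The seed-sharing pairs that include an abundant arm are printed here with the seed in capitals.
miR-379-5p: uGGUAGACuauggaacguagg
miR-1193-5p: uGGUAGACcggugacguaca
miR-381-3p: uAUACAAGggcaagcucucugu
miR-539-3p: cAUACAAGgauaauuucuuuuu
miR-379-5p averaged 1199 CPM and miR-1193-5p 0.175 CPM, and miR-381-3p averaged 164 CPM and miR-539-3p 1.45 CPM, so in each pair one arm supplied nearly all of the counts with that seed. A further 7 member seeds occurred in a known miRNA that the name rule does not take. One of these, miR-299b-3p, belongs to the same locus and matches the start of miR-299a-3p. For most of these the member was the more abundant, as for miR-329-3p at 154.1 CPM beside miR-362-3p at 8.29 CPM. The reverse held for miR-412-3p, at 0.710 CPM beside 129.5 CPM for miR-1983, and for miR-377-5p, at 0.947 CPM beside 44.1 CPM for miR-672-5p.

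Several members are near copies of each other, and the sources used here do not say how reads were shared between such rows, which makes their separate counts uncertain. Substitutions are given from the first to the second miRNA, with positions from the 5′ end. miR-300-3p differs from miR-381-3p by G4A, U21G and C22U, so one change lies in the seed. miR-376a-3p differs from miR-376b-3p by G4A, A13C and G20U, and from miR-376c-3p by U2A, G4A, A14U and C16U. These related arms are printed with their seeds in capitals.
miR-300-3p: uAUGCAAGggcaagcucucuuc
miR-381-3p: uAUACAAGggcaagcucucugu
miR-376a-3p: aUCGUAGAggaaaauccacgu
miR-376b-3p: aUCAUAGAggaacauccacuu
miR-376c-3p: aACAUAGAggaaauuucacgu
The 5 seeds are all different. Over the 6 libraries the rows held 715 counts for miR-300-3p, 2505 for miR-381-3p, 5667 for miR-376a-3p, 319 for miR-376b-3p and 2023 for miR-376c-3p.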

How the data were processed

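Per the file headers, the authors deposited whole-number read counts per mature miRNA and RPM values. The submitters' processing notes name Bowtie2 and GRCm38.p6, without versions of the tool or roles. Library adapters carried molecular identifiers, per the labels' protocols, for RNA of 18 to 30 nt. The sources used here do not say whether counts were collapsed on them, so duplicates could make counts look too precise. The totals behind the RPM values, 22055639 to 27876715, were computed by dividing counts by RPM.

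Counts of all 1414 rows (1104 known, 310 predicted) entered edgeR 4.0.16 in R 4.3.3: filterByExpr (minimum count 10, minimum total 15), TMM factors, robust two-sided quasi-likelihood test, Benjamini-Hochberg adjustment over 499 rows, threshold 0.05. Arm ratios used limma 3.58.1. The scripts were tested on simulated data. Named with values were the 10 most abundant members, those with an unadjusted p under 0.05 and the 2 most abundant per stretch, 21 in all. Members and lists were chosen with earlier results of these data known. Groups come from sample titles. Alternatives covered scaling, DESeq2 1.42.0, filters, rows kept, arm settings and leaving out each library.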

Additional observations from a re-analysis of the deposited data

How the results depend on the processing

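No paired analysis was possible because the groups share no replicate numbers. The main values were 5 rows higher and 1 lower among all rows and 0 members in either direction. At an unadjusted p under 0.05, 2 members were higher and 5 lower, and the member median was -0.0538. The change of the summed level was 0.0619, taken here as the difference between the group means of the log2 sums. The log2 ratio of the mean sums given above was 0.0732. All rows called higher and lower were 7 and 8 with RLE factors, 6 and 39 with upper quartile factors, 17 and 1 with total counts, 121 and 2 with the authors' totals, 19 and 19 with DESeq2, 23 and 35 with no filter, and 8 and 7 with known rows only. Rows tested numbered 503 with the authors' totals, 1414 with no filter, 447 with known rows only and 499 in the other settings just named. Members called were 1 of 49 lower with upper quartile factors and 10 of 51 higher with the authors' totals. With no filter 1 of 87 was lower (miR-493-5p, -1.73, edgeR adjusted p = 0.0254), and 0 were called in the other settings. Members at an unadjusted p under 0.05 were 0 higher and 8 lower with upper quartile factors, 7 and 1 with total counts, 17 and 0 with the authors' totals, and 3 lower at a mean of at least 10 CPM. The matching shares of all tested rows are not given for these settings, so the counts are not a result about the members. The median of all tested rows moved as well, to -0.286 with upper quartile factors, 0.295 with total counts and 0.793 with the authors' totals. The member median was -0.329, 0.257 and 0.728, and the change of the summed level -0.227, 0.362 and 0.858, with upper quartile factors, total counts and the authors' totals.

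Log2 fold changes that changed sign were those of miR-127-3p (-0.114), miR-411-5p (-0.079), miR-136-5p (-0.12) and miR-337-5p (-0.119) with upper quartile factors, and of miR-379-5p (0.281), miR-376a-3p (0.103) and miR-381-3p (0.186) with total counts. With the authors' totals they were those of miR-379-5p (0.742), miR-376a-3p (0.557), miR-434-3p (0.396), miR-381-3p (0.657), miR-329-3p (0.414), miR-409-3p (0.0856) and miR-370-3p (0.102). miR-379-5p also changed sign at a mean of at least 10 CPM (0.0178) and without repeated sequences (0.009). The cause was not tested, apart from the shift of all rows that each scaling brings.

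Leaving out each library in turn gave 3 to 5 rows higher and 0 to 5 lower, 0 members called, 1 to 2 members higher and 1 to 6 lower at an unadjusted p under 0.05, a member median of -0.187 to 0.0681 and a change of the summed level of -0.0606 to 0.18. The members lower at an unadjusted p under 0.05 numbered 1 without control 43, 1 without model 59 and 3 without model 56. Here too the matching shares of all tested rows are not given. Ranges that crossed zero were -0.029 to 0.423 for miR-411-5p, -0.182 to 0.179 for miR-379-5p, -0.356 to 0.0307 for miR-376a-3p, -0.0878 to 0.628 for miR-136-5p and -0.291 to 0.0211 for miR-381-3p. Those that kept their sign but moved by over 1.5 times were 0.082 to 0.318 for miR-127-3p, 0.209 to 0.616 for miR-154-5p, -0.697 to -0.262 for miR-434-3p, -0.66 to -0.0436 for miR-329-3p, 0.177 to 0.569 for miR-434-5p, -2.59 to -1.14 for miR-493-5p, 0.0218 to 0.429 for miR-337-5p, 0.216 to 1.01 for miR-341-3p and -1.45 to -0.385 for miR-370-3p. The arm ratio of miR-134 stayed between 0.971 and 1.17. Depth limits the 38 members that were not tested, which had at most 21 counts in any library.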
